A study of Apis mellifera with 6 samples.

Results

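The 100 most abundant transcripts of the honey bee (Apis mellifera) midgut at 35 °C took 51.8% ± 0.11 (SD, n = 3 libraries) of the reads in that tissue, and 38.8% ± 3.29 (n = 3) at 45 °C. They were selected on the HSR dataset, poly(A)-enriched RNA of midguts from bees fed sucrose solution with 0.5% DMSO and kept for 4 h at 35 °C (3 libraries) or at 45 °C (3 libraries), as the labels state. The members are the genes with the highest mean normalized count at 35 °C, which is the gene count divided by a size factor of the library. Of 10151 listed genes, 10139 were open to the choice. Left out were the 7 genes whose symbol starts with RpL or RpS, and Hsc70-3, Hsc70-4, Hsp90, LOC724449 and LOC102653599, of which 5 in all had a mean above that of the lowest member. Since the 35 °C values chose the members, the values at 35 °C, and any difference from them, are a description. For the members, values from the fit of all 6 libraries, including which are past its threshold ("called"), are therefore given as a description. A test that is not tied to the choice is given by fits in which the 1 library that chose a list of genes was left out. P-values of genes that are not members come from the fit of all 6.

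The midgut is the digestive part of the bee gut. Its enterocytes secrete digestive enzymes, take up sugars and amino acids, and face whatever the bee swallows, so genes of digestion, energy supply, detoxification and protein synthesis are usually among the most transcribed in such a tissue. Alpha-glucosidases, which split sucrose into glucose and fructose, are the best known midgut enzymes of a nectar feeder. In insects as in other animals, heat shock proteins that are scarce at rest are strongly induced by high temperature, and translation and transcription of many other genes can be held back meanwhile.

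The libraries at 35 °C held 23305758 to 26279130 reads on listed genes and those at 45 °C 24690115 to 26921417, with size factors from 0.812 to 1.18. The labels call the replicates separate samples of 1 midgut group, and the study's methods give 3 midguts per group sequenced individually. The labels mark the 3 libraries at 35 °C, and none at 45 °C, as re-analysed from another series, so series and temperature cannot be told apart. Other datasets of the study had DMSO controls fed for 24 h, so the libraries at 35 °C may be controls of that time in place of 4 h, and then time and temperature cannot be told apart either in any difference given here. The label midgut could not be checked independently. The 3 listed alpha-glucosidase genes (AGLU2, Hbg2 and Hbg3), which were taken as its markers, summed to between 1029250 and 1447590 normalized counts at 35 °C and between 1310040 and 1576100 at 45 °C, but nearly all of this lay on AGLU2 and Hbg2, which are members chosen for their level, and Hbg3 is known from the hypopharyngeal gland. The 5 fat body markers summed to between 643 and 834 normalized counts at 35 °C and between 923 and 1405 at 45 °C, and the 7 muscle markers to between 4676 and 7647 and between 5869 and 7069. Past the threshold were 2 of the 5 fat body markers on the higher side, beside 13.1% of all genes. On the lower side it was 2 of the 7 muscle markers, beside 4.94%, and none of the 3 alpha-glucosidases passed. The venom gland marker Melt had 4.66, 1.69 and 3.53 normalized counts at 35 °C. At 45 °C it had 14.8, 7.95 and 430, high in replicate 3 alone, and it was not past the threshold. None of the 5 hypopharyngeal gland markers was listed. The part of other tissues in the results was not tested.

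The share of reads on the members was nearly constant at 35 °C and lower in each library at 45 °C. At 35 °C it was 51.7%, 51.9% and 51.8% of the reads on all listed genes in replicates 1, 2 and 3, and at 45 °C it was 42.5%, 36.2% and 37.7%. The groups did not overlap, and replicate 1 stood above the other two at 45 °C. The difference of the means was 13 percentage points. When each 35 °C library alone chose 100 genes by the same rule, these took 50.9 to 51.7% of the reads in the 35 °C libraries that had not chosen them and 35.4 to 42.4% at 45 °C, again without overlap. With 3 libraries against 3, an exact permutation test on a share cannot go below 0.10, and none was run.

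The reads were concentrated on few of the members. The first gene alone, LOC724199, took 9.49% ± 0.621 of the reads at 35 °C, the highest 10 took 31.0% ± 0.939, the highest 20 took 38.6% ± 0.589 and the highest 50 took 45.8% ± 0.221 (SD, n = 3 each). The last 50 added 5.96% ± 0.322. At 45 °C the highest 10 took 24.2% ± 3.42, the highest 20 took 28.6% ± 3.59, and members 51 to 100 took 5.15% ± 0.10. Of the 100, 13 held at least 1% of the reads at 35 °C and 10 did so at 45 °C. The share of reads was lower at 45 °C for 81 members and higher for 19. With library size alone as the scaling, the median log2 fold change from 35 to 45 °C was -0.47 for the members and -0.39 over all genes. A lower share was thus not particular to the members.

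In normalized counts, by contrast, the members' sum had nearly the same mean at both temperatures. It was 11372500 ± 156185 at 35 °C and 11202800 ± 1811480 at 45 °C (SD, n = 3), a ratio of 0.985. In the libraries the sum was 11233200, 11541400 and 11343000 at 35 °C, and 13294500, 10158500 and 10155400 at 45 °C. The 45 °C libraries thus lay on both sides of the 35 °C range, replicate 1 above it and the other two below. Without replicate 1 the ratio was 0.893. Parts of the list moved in opposite directions. With all libraries the ratio was 1.12 for LOC724199 and 0.954 for members 2 to 100. It was 0.923 for members 11 to 100 and 1.13 for members 51 to 100.

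The normalized sum over all genes outside the members was 1.66 times as high at 45 °C, a gain of 6960530 normalized counts. Of this gain, 4743410 lay on the 10 genes with the largest gain, which were picked on these same values. They were LOC724488, Hsp90, LOC724367, Hsc70-4, LOC410087, LOC724274, LOC102653599, LOC724449, LOC410620 and LOC412197. Hsp90 and Hsc70-4 encode chaperones, and the study counts LOC724488, LOC724367, LOC410087, LOC724274, LOC724449 and LOC412197 among the small heat shock genes. Together the 10 went from 0.660% ± 0.111 to 17.0% ± 1.25 of the reads. Counted among the reads outside the 20 highest non-members at 45 °C, the members took 52.4% ± 0.103 at 35 °C and 48.9% ± 3.41 at 45 °C, with 52.8%, 46.5% and 47.4% in replicates 1, 2 and 3. On that base the groups overlapped in the sense that replicate 1 at 45 °C was above all 3 libraries at 35 °C. These 20 were picked on the reads at 45 °C, so leaving them out raises the share mainly there. Of the reads on genes open to the choice, the members took 52.3 to 52.5% at 35 °C and 39.7 to 46.0% at 45 °C, without overlap. With the 20 highest genes at 45 °C left out of members and reads alike, the share was 29.4 to 31.5% and 24.1 to 25.8%, again without overlap.

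**Figure D1:**
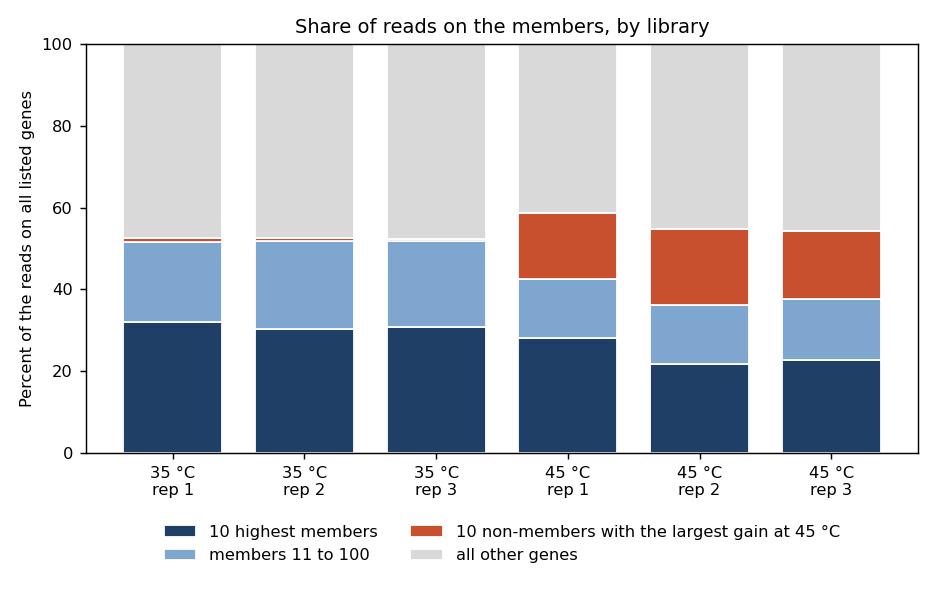
Percent of the reads on all listed genes (y axis) in each of the 6 libraries (x axis), split into the 10 highest members, members 11 to 100, the 10 non-members with the largest gain in normalized counts at 45 °C, and all other genes. Both blue blocks together reach 51.7 to 51.9% at 35 °C and 36.2 to 42.5% at 45 °C, and the red block goes from a mean of 0.660% to one of 17.0%.

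The list had no natural end. The last member, LOC724192, had 20669 ± 3092 normalized counts at 35 °C, and the first gene outside, LOC725552, had 20614 ± 869 (SD, n = 3). The mean of the highest member was 100.8 times that of the lowest, and 19 members had a mean over 100000. The 3 libraries chosen singly named 84, 95 and 92 of the members, and 74 genes, all of them members, were in the 100 highest of each library. The counts were not divided by transcript length, so the order is one of reads and not of molecules, and a long transcript ranks above a short one of the same number.

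Of the members, 97 were found by symbol in the RefSeq gene table of assembly Amel_HAv3.1. There 94 were protein-coding and 3 (LOC107964104, Ancr-1 and LOC726292) were long non-coding RNAs, against 771 long non-coding RNAs (8.29%) among the 9300 listed genes found in the table. A total of 83 members carried only a LOC identifier, for which no name or role was available here, and they included most of the highest 20. Only 7 symbols in the files start with RpL or RpS, so ribosomal protein genes listed under a LOC identifier may be among the members.

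LOC724199 was the most abundant transcript at both temperatures. It had 2051370, 2252220 and 1947070 normalized counts at 35 °C and 3284710, 2011820 and 1720320 at 45 °C. The groups overlapped, with replicate 1 at 45 °C the highest and replicate 3 at 45 °C the lowest of the 6. The log2 fold change from 35 to 45 °C was 0.11 (SE 0.55), and it was below 0 without 45 °C replicate 1 (-0.16) and with library size alone as the scaling (-0.24). The spread at 45 °C was wide for several others of the first 20. LOC410894 had 207244, 172701 and 162467 normalized counts at 35 °C and 427292, 194280 and 162398 at 45 °C, where replicate 1 again stood far above the others. LOC100577156 had 403954, 261410 and 276058 against 642646, 335531 and 342520, with overlapping groups and replicate 1 the highest at each temperature.

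The next 3 genes in the order, LOC100579019, LOC724874 and LOC725725, carry LOC identifiers and overlapped between temperatures. LOC100579019 had 891862, 663913 and 753138 normalized counts at 35 °C and 697147, 453664 and 679881 at 45 °C. LOC724874 had 666689, 826740 and 695386 against 716332, 658088 and 680762, with a log2 fold change of -0.09 (SE 0.35). LOC725725 had 898645, 493938 and 482378 against 584301, 316011 and 304165, so that replicate 1 was well above the others at both temperatures, and the log2 fold change was -0.64 (SE 0.43).

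Hbg2 and AGLU2, both alpha-glucosidases, were the fifth and the sixth most abundant. Hbg2 had 478501, 553662 and 804952 normalized counts at 35 °C and 1021580, 724826 and 926583 at 45 °C, which overlapped in 1 library of each group. Its log2 fold change was 0.56 (SE 0.40, 95% interval -0.36 to 1.48). AGLU2 had 549664, 645566 and 641063 at 35 °C and 552589, 583354 and 541879 at 45 °C. These groups overlapped as well, and the log2 fold change was -0.13 (SE 0.33, interval -0.88 to 0.63). The one other alpha-glucosidase listed by symbol, Hbg3, was far less abundant, at 1377 ± 256 and 1924 ± 59.4 normalized counts, and none of the 3 was past the threshold. The handling of reads that fit more than 1 of these related genes is not stated in the study.

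Of the 20 highest members, 17 had overlapping groups, 3 were lower in every 45 °C library than in any 35 °C library and none was higher in every one, where 26.4% of all genes were lower and 26.8% higher in this way. Since the 35 °C values chose these genes, nothing is read from that. The 3 were LOC107964104, LOC100577527 and LOC413575. LOC107964104, a long non-coding RNA, had 277020, 268213 and 264774 normalized counts at 35 °C, among the tightest sets of all members, and 171847, 130825 and 194404 at 45 °C. Its log2 fold change of -0.72 (SE 0.26) was short of the threshold. LOC413575 had 116074, 125191 and 125621 against 87520, 48466 and 68831, with a log2 fold change of -0.88 (SE 0.25). The 20 ratios of the mean at 45 °C to that at 35 °C ran from 0.382 to 1.45, and 6 of the 20 had a 95% interval of the log2 fold change that lay within -1 and 1.

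**Figure D2:**
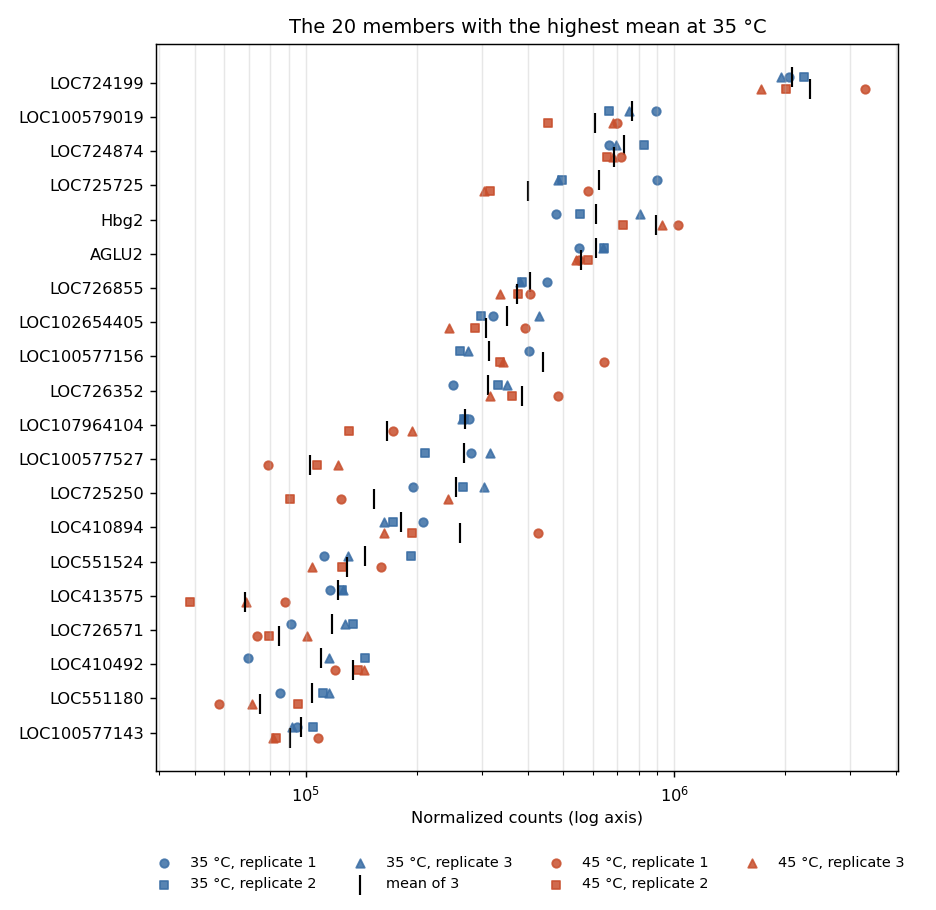
Normalized counts (x axis, log scale) of the 20 members with the highest mean at 35 °C (y axis, in order), 1 point per library, with the replicate given by the marker, the temperature by the colour, and black ticks for the means of 3. Blue and red points interleave for 17 of the 20, and LOC107964104, LOC100577527 and LOC413575 have all red points to the left of the blue ones.

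Across the 100 members, log2 fold changes centred close to 0 and few were large. Their median was -0.08, and it was -0.01 over all 10151 genes. The median size without regard to sign was 0.37 among members and 0.51 over all genes. The values ran from -2.10 to 1.17, 53 were below 0 and 47 above, and 68 members were within 0.5 of 0. The signs moved with the scaling. When reads were scaled by library size alone, 19 members were above 0 with a median of -0.47 against -0.39 over all genes, with library size after leaving out the 20 genes with most reads at 45 °C 36 were above 0 with a median of -0.25 against -0.18, and with quantile normalization 13 were above 0 with a median of -0.59 against -0.15.

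In the fit of all 6 libraries with limma on log2(value + 1), 4 members passed an adjusted p of 0.05 with a log2 fold change above 1, where 13.1% of all genes did so. On the lower side, 5 members passed with a log2 fold change below -1, where 4.94% of all genes did so. By the adjusted p alone 9 members were higher, beside 21.1% of all genes, and 13 were lower, beside 18.2%. All 3 libraries at 45 °C were above all 3 at 35 °C for 16 members, beside 26.8% of all genes, and below them for 21, beside 26.4%. The groups overlapped for the other 63 members. These counts use the 35 °C libraries that chose the members, and nothing is read from them against the shares of all genes. The split of 4 higher and 5 lower was 0 and 19 with library size alone, 0 and 9 with library size without the 20 highest genes, and 0 and 25 with quantile normalization.

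A member that did not pass was not thereby shown to be unchanged. Of the 91 not called, 54 had a 95% interval within -1 and 1, that is, within a 2-fold change either way, and for 37 the interval reached further. With called genes counted in the base on both sides, the interval lay within these bounds for 54% of the members and for 44.7% of all genes. By rank at 35 °C, 4.5% of genes 101 to 300 were past the threshold on the higher side and 6.5% on the lower, and of genes 3001 to 10139 it was 15.4% and 4.97%.

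**Figure D3:**
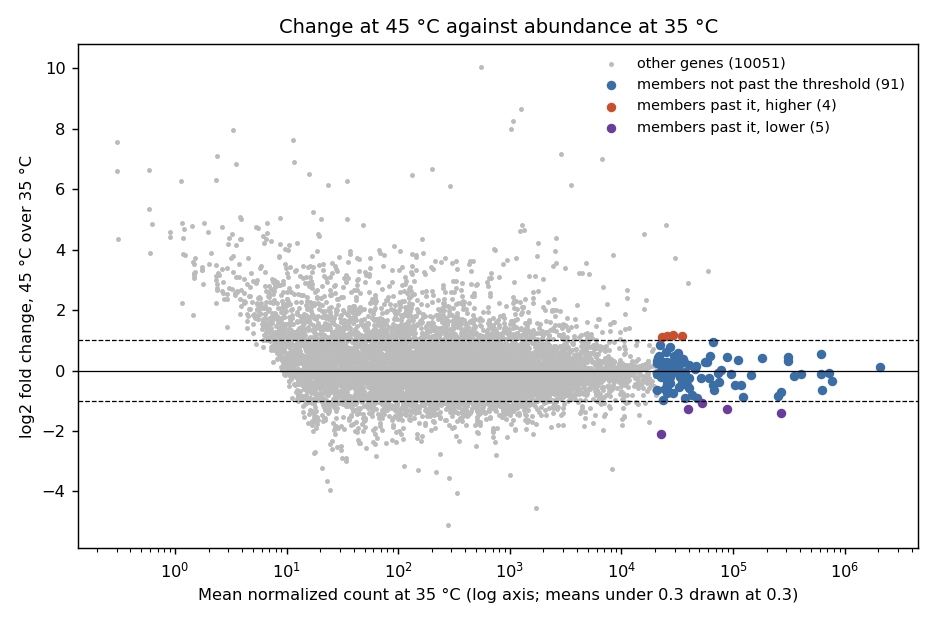
The log2 fold change from 35 to 45 °C (y axis, limma) against the mean normalized count at 35 °C (x axis, log scale) for 10051 other genes in grey and the 100 members in colour, with dashed lines at -1 and 1. The members lie at the right edge between -2.10 and 1.17, 4 above the upper line and 5 below the lower line.

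Each 35 °C library in turn then chose 100 genes by the same rule and was left out of the fit of the other 5 (the held-out fits). Of the genes chosen by replicate 1, 2 were past the threshold on the higher side and 3 on the lower, beside 12.9% and 4.85% of all genes in that fit (limma). Of those chosen by replicate 2, it was 5 higher and 5 lower, beside 12.0% and 4.35%, and of those chosen by replicate 3, 4 higher and 4 lower, beside 11.7% and 4.25%. In each of the lists the share called higher was thus below that of all genes, and the share called lower was within 2 percentage points of it. The genes called were members in each case.

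A total of 74 genes were chosen by all 3 libraries, and of these 1 (LOC408388) was past the threshold on the higher side in all 3 fits, beside 10% of all genes, and 2 (LOC100577527 and Mblk-1) on the lower side, beside 2.88%. Since every 35 °C library then both chose the genes and entered fits, these counts show how steady a call was and are no independent test. The same holds for the held-out values of single genes given below, which are named for their call in the fit of all 6 libraries. LOC726292 passed all 3 fits as well but was not chosen by replicate 1, so that only the fits without replicate 2 and without replicate 3 left out a library that had chosen it. LOC100577527, Mblk-1 and LOC726292 also kept their call when any single library was left out and under every other scaling tried. LOC408388 did not: its log2 fold change was 0.99 without 45 °C replicate 1, 0.77 with library size alone and 0.61 with quantile normalization.

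LOC726292, a long non-coding RNA, had the lowest log2 fold change of the members. It had 17315, 25686 and 25406 normalized counts at 35 °C and 3693, 5306 and 7295 at 45 °C. The highest library at 45 °C was well below the lowest at 35 °C, the mean was 4.20-fold lower at 45 °C, and the rank went from 90 to 569, the lowest of any member. The log2 fold change was -2.10 (SE 0.27) over all 6 libraries. In the fits without replicate 2 and without replicate 3, both of which chose the gene, the adjusted p in limma was 0.00511 and 0.00593.

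LOC100577527 carried most reads of the 9 called members, and ranked 12 at 35 °C. Its values were 279681, 210560 and 314976 at 35 °C and 78713, 107279 and 121787 at 45 °C, so that no 45 °C library came near the 35 °C range. Its share of reads went from 1.22 to 0.362%. The mean was 2.62-fold lower, and the held-out log2 fold changes were -1.56 to -1.27 with an adjusted p of at most 0.0291 in limma.

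Mblk-1 encodes a transcription factor first described in mushroom body neurons of the bee brain, and its Drosophila counterpart E93 is a regulator induced by the steroid hormone ecdysone. It had 77235, 100889 and 87015 normalized counts at 35 °C and 38958, 35422 and 35887 at 45 °C. The 45 °C values were tightly grouped at well under the lowest 35 °C value. The mean was 2.40-fold lower, the rank went from 22 to 71, and the held-out log2 fold changes were -1.35 to -1.16 with an adjusted p of at most 0.00923 in limma.

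The other genes past the threshold on the lower side, LOC100577915 and LOC107964964, did not pass all held-out fits. LOC100577915 had 37357, 31826 and 50002 normalized counts at 35 °C and 26397, 10861 and 14220 at 45 °C. The groups did not overlap, but replicate 1 at 45 °C was close to the lowest value at 35 °C, and the largest held-out adjusted p in limma was 0.0629. Its log2 fold change of -1.29 (SE 0.33) was past the threshold neither without 35 °C replicate 3 (-1.11) nor without 45 °C replicate 2 (-1.01) or 3 (-1.20). LOC107964964 had 67163, 42705 and 48504 against 28205, 23798 and 22694. Here the 35 °C spread was set by replicate 1, and the log2 fold change was -1.06 (SE 0.21) over all libraries and -0.88 without that replicate. It was also short of the fold limit without 45 °C replicate 3.

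On the higher side, LOC408388 had 24986, 28679 and 23495 normalized counts at 35 °C and 70840, 47151 and 54742 at 45 °C. The groups were far apart, the mean was 2.24 times as high, and the held-out log2 fold changes were 1.08 to 1.23 with an adjusted p of at most 0.0208 in limma. LOC409165 had 43346, 33820 and 26971 against 74055, 68762 and 83765, also without overlap, and held-out log2 fold changes of 0.98 to 1.32, the first of these without 35 °C replicate 3.

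LOC726860 had 17623, 34143 and 34572 normalized counts at 35 °C and 59601, 66602 and 59912 at 45 °C. Replicate 1 at 35 °C was well below the rest of its group, and without it the log2 fold change was 0.85 in place of 1.17. In the RefSeq table this gene overlaps LOC409007, whose mean count at 35 °C was 26.6% of its own, and no source used here states whether the counting was by strand. Ancr-1, a long non-coding RNA found in the nucleus of bee cells, had 16305, 27150 and 26006 against 51611, 40191 and 56275. It did not overlap between temperatures either, and its log2 fold change was 1.11 (SE 0.24) over all libraries and 0.88 without 35 °C replicate 1. Each of the 4 members on the higher side stayed above 0, and none kept its call, with library size alone, with library size without the 20 highest genes, or with quantile normalization.

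**Figure D4:**
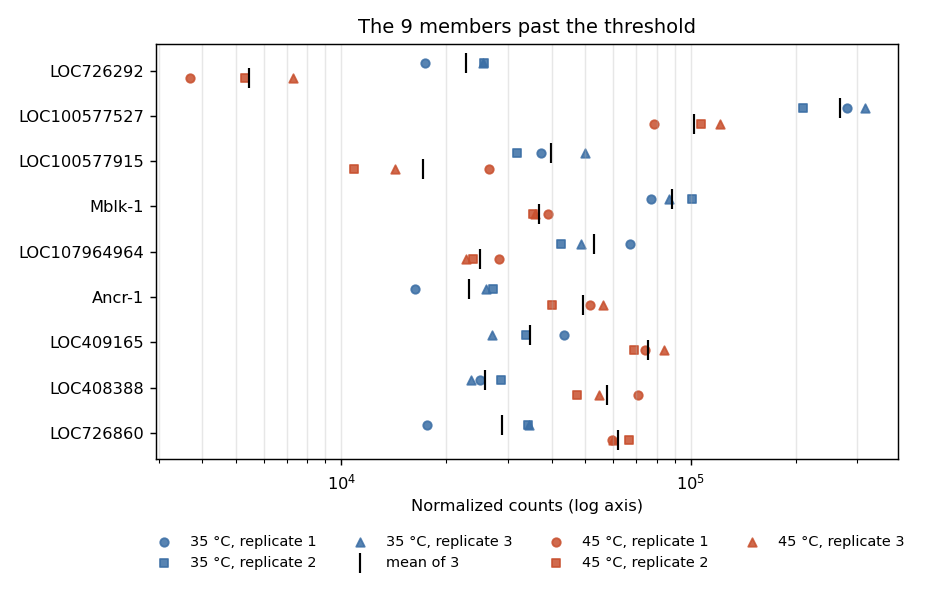
Normalized counts (x axis, log scale) of the 9 members past the threshold in the fit of all 6 libraries (y axis, from the lowest to the highest log2 fold change), 1 point per library and black ticks for the means of 3. The red and blue points do not overlap for any of the 9, and 35 °C replicate 1 lies apart from its group for LOC726860, Ancr-1 and LOC726292.

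Of the 17 members with a symbol, 1 was called higher, 1 lower and 15 neither, beside 13.1% and 4.94% of all genes called higher and lower. For 9 of the 17 the 95% interval of the log2 fold change lay within -1 and 1, as for 44.7% of all genes. EF1a-F2, an elongation factor that brings transfer RNA to the ribosome, had 82573, 92078 and 91662 normalized counts at 35 °C and 135534, 121301 and 111060 at 45 °C. It was higher in every 45 °C library, by 0.46 (SE 0.20) on the log2 scale, but by quantile normalization the value was -0.68. The other 3 translation factors listed by symbol (Ef-1a-f1, Eif3h and Eif4g) were not past the threshold either.

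Among genes of energy supply, Argk (arginine kinase, which buffers ATP in invertebrate cells) had a log2 fold change of 0.47 (SE 0.28), Ant (the ADP/ATP translocase of the inner mitochondrial membrane) 0.02 (SE 0.20) and ATP5G2 (subunit c of ATP synthase) 0.18 (SE 0.16). Ant had 21039, 29302 and 30446 normalized counts against 29796, 28100 and 23407, fully interleaved, and its interval ran from -0.43 to 0.47. Of the 9 listed genes of mitochondrial energy supply, 2 of them members, 1 was past the threshold on the higher side and none on the lower, which is close to the 13.1% and 4.94% of all genes. That gene was CytC, the electron carrier cytochrome c and not a member, at 4333 ± 1343 and 9628 ± 1677 normalized counts (limma, adjusted p = 0.00649). The p-values of CytC and of the non-members named below rest on counts divided by size factors. With library size alone, the median over all genes was -0.39 on the log2 scale, in place of -0.01. Whether the calls of these non-members hold under that scaling was not tested.

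Enzymes of detoxification and redox balance were represented by GstS1 and GstD1 (glutathione S-transferases), Sod1 (copper/zinc superoxide dismutase) and CYP6AQ1 (a cytochrome P450). Sod1 had 19822, 23277 and 20638 normalized counts at 35 °C and 32150, 26166 and 25994 at 45 °C, higher in every library at 45 °C, with a log2 fold change of 0.40 (SE 0.16). GstS1 and GstD1 had overlapping groups and log2 fold changes of 0.29 (SE 0.22) and -0.23 (SE 0.22). CYP6AQ1 had 31095, 41200 and 28083 against 16293, 55041 and 25010, so that 45 °C held both the lowest and the highest library. Of the 11 listed glutathione and antioxidant genes, 2 were past the threshold, both on the higher side (13.1% of all genes) and neither a member: Trxr-1 (thioredoxin reductase), with 11637 ± 1430 and 31124 ± 8533 normalized counts (limma, adjusted p = 0.00249), and MsrA (methionine sulfoxide reductase), with 658 ± 197 and 3597 ± 925 (adjusted p = 0.000582). Of the 4 listed P450 genes, 1 was past the threshold, on the higher side (13.1% of all genes): Cyp6as5, not a member, at 1773 ± 1298 and 10795 ± 6058 (limma, adjusted p = 0.0115).

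PRF (profilin, which binds actin monomers) had a log2 fold change of 0.25 (SE 0.16) and Arp1, named for an actin-related protein, -0.57 (SE 0.31), both with overlapping groups. CSP3, a chemosensory protein of the family of small soluble ligand carriers, had 31756, 28925 and 20207 normalized counts at 35 °C and 45270, 46453 and 43456 at 45 °C. These did not overlap, and the log2 fold change was 0.77 (SE 0.20). Of the 5 listed chemosensory protein genes it was the only member, and 1 was past the threshold, on the higher side (13.1% of all genes): CSP6, at 15.8 ± 9.99 and 48.3 ± 6.47 normalized counts (limma, adjusted p = 0.0330). The counts of CSP6 were low, at 25.2, 16.9 and 5.30 at 35 °C, and its largest held-out adjusted p in limma was 0.0545. Cryl1, a dehydrogenase related to lens lambda-crystallin, had 28788, 23283 and 24816 against 18840, 15966 and 15163, also without overlap, with a log2 fold change of -0.62 (SE 0.16).

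Emc, named for the Drosophila regulator extramacrochaetae that binds and inhibits other helix-loop-helix proteins, had the widest spread at 45 °C among the members with a symbol (a coefficient of variation of 73.0%, and 19.6% at 35 °C). It had 33287, 24096 and 24020 normalized counts at 35 °C and 43541, 14364 and 12999 at 45 °C, where replicate 1 was above every 35 °C library and the other two below. Mblk-1 was listed with 5 other genes of the ecdysone pathway, and was the only one of the 6 past the threshold, on the lower side (4.94% of all genes). The receptor genes Ecr and Usp, which are not members, went from 6879 ± 842 to 11719 ± 1756 and from 1259 ± 90.2 to 2161 ± 192 normalized counts (limma, adjusted p = 0.00833 and 0.00269), short of the fold limit with log2 fold changes of 0.77 and 0.78.

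**Figure D5:**
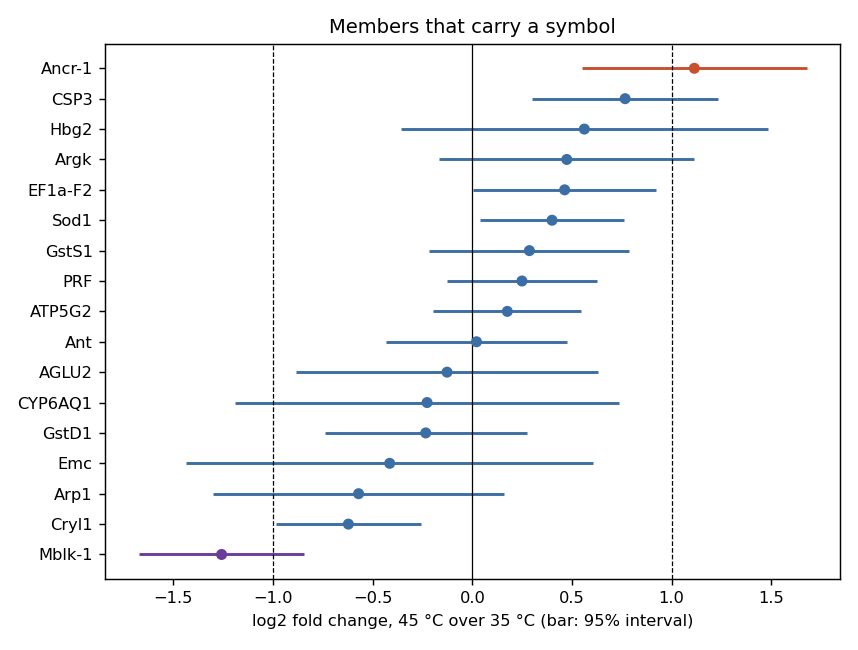
The log2 fold change from 35 to 45 °C (x axis, limma on all 6 libraries) of the 17 members with a symbol (y axis), with bars for the 95% interval and dashed lines at -1 and 1. Mblk-1 at -1.26 and Ancr-1 at 1.11 are the 2 past the threshold, and 9 bars lie wholly between the dashed lines.

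The members differed considerably between individual midguts of 1 temperature. Their median coefficient of variation was 17.3% at 35 °C and 15.0% at 45 °C, beside 11.7% over the 2496 genes with a mean of at least 1000 at 35 °C and 12.4% over the 2571 such genes at 45 °C. No test was made of that difference. A gene could enter the list through 1 high library at 35 °C, so the spread there is tied to the choice. The coefficient was larger at 45 °C for 45 members and smaller for 55. LOC102655329 had the lowest at 35 °C (0.504%), with 27756, 28019 and 27975 normalized counts, and 30480, 26394 and 28475 at 45 °C. LOC724772 had the lowest at 45 °C (2.99%, and 3.14% at 35 °C), with 32435, 33793 and 31783 against 44361, 43424 and 46057, and it was higher in every 45 °C library.

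The widest spread at 35 °C was that of LOC724257 (62.6%), with 56699, 19226 and 22986 normalized counts, and at 45 °C that of LOC409341 (75.1%), with 84176, 37057 and 16793. In both genes replicate 1 held the high value. Such deviations ran through many members. Replicate 1 was the lowest of the 35 °C libraries for 56 members and the highest for 27, replicate 2 was the highest for 52, and at 45 °C replicate 1 was the highest for 49. The median log2 distance of a member from its 35 °C mean was -0.11 in replicate 1 and 0.11 in replicate 2, where that of all genes was 0.04 and -0.01. The source of these differences between midguts was not tested.

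At 45 °C, 69 of the 100 members were still among the 100 highest genes under the same exclusions, and 97 were within the first 200. Taken singly, the 45 °C libraries held 66, 68 and 70 of the members in their first 100. Of the 10 highest at 35 °C, 6 were in the first 10 at 45 °C, and of the 20 highest, 13 were in the first 20. Several members that left the first 100 did so with almost the same counts: Ant went from rank 70 to 102 and LOC408474 from 65 to 101, with mean ratios of 1.01 and 0.972.

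The places were taken by 31 genes, of which 11 had ranked over 1000 at 35 °C and 5 had ranked between 101 and 200. Of the 31, 28 were past the threshold on the higher side, beside 13.1% of all genes. They were picked for a higher rank at 45 °C in these same libraries, so nothing is read from that count. LOC724488 went from rank 398 to 3, from 6710 to 853828 normalized counts, and LOC724367 from rank 3901 to 6, from 556 to 582339. Among those with a symbol were Hsc70-5 and Cdc37, a mitochondrial chaperone and a cochaperone of Hsp90, and Trxr-1. Counting the left-out chaperone genes as well, 10 of the 20 genes with most reads at 45 °C were members and 10 were not.

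Some of the counts of members could include reads of a neighbour. By the RefSeq annotation, 35 members overlap another gene, and for 5 of them the other gene had over 10% of the member's mean count at 35 °C. Of these, LOC551684 and LOC551651 are both members and overlap each other, with 52086 and 35190 normalized counts at 35 °C and 44144 and 32826 at 45 °C, and LOC408474 overlaps LOC410539, which had 47.7% of its count. LOC408452 and LOC725621 were the one other pair of members with no gene between them.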

How the data were processed

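Per the labels and the study's methods, reads were trimmed (Trimmomatic 0.36) and counted per gene on a build other than the reference table used here, and STAR and Subread are named without settings. The deposited signal values are the authors' counts per gene after division by a DESeq2 library factor, in 3 tables. All values were within 0.01 of a whole number of reads after multiplication by the factor, and shares are of these reads. Every listed gene had at least 61 reads over all libraries, and 0 columns of other samples were present. The authors' fold changes and p-values in the tables were not used.

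The main test was limma 3.58.1 (R 4.3.3, empirical Bayes with trend) on log2(value + 1), without a block, for means of at least 1, with Benjamini-Hochberg adjustment over 10151 genes and a threshold of adjusted p 0.05 and absolute log2 fold change 1. Fold changes of low genes are understated on this scale. DESeq2 1.42.0 and edgeR 4.0.16 on the recovered reads, other scalings, pseudocounts, filters and omitted libraries were alternatives. The script was tested on simulated data. The time at 35 °C was taken as 4 h, although controls of 24 h are possible. The members and gene lists were chosen with earlier results of these data known. Genes named are the 20 highest members, the called members with the 5 highest and 5 lowest fold changes, the members at the limit and the 3 most variable at 45 °C. The members with a symbol stand in place of the intended choice by described role, since no descriptions were at hand, and the other genes named were picked after their values were seen.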

Additional observations from a re-analysis of the deposited data

How the results depend on the processing

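The 4 higher and 5 lower members were the same genes with DESeq2, edgeR with TMM or relative log expression factors, no filter, a mean of at least 100, pseudocounts of 0.1 and 10 and no trend. The higher and lower counts were 0 and 19 with library size alone, 0 and 9 without the 20 highest genes at 45 °C, 0 and 25 with quantile normalization, 0 and 0 when limma tested against an absolute change of 1, 9 and 13 without a minimum fold, and 0% and 8% of a list of 50. Leaving out 1 library gave 2 to 5 higher (2 without 35 °C replicate 1) and 4 to 8 lower (8 without 45 °C replicate 1). Genes chosen by 1 library and tested in the other 5, an alternative added after seeing the data, gave 2 higher and 3 lower for replicate 1 and 4 to 5 of each for the others. The counts of 1 higher and 2 lower called in all 3 such fits were 0 and 9 with library size alone and 0 and 19 with quantile normalization. The median log2 fold change of -0.08 was -0.47, -0.25 and -0.59 under these 3 scalings, which moved the median of all genes to -0.39, -0.18 and -0.15, and ran from -0.12 to 0.046 with 1 library left out, above 0 only without 35 °C replicate 2. The cause was not tested. The share at 35 °C was 52.4% of the reads on genes open to the choice, 30.5% with the 20 highest genes at 45 °C left out of both terms, and 51.3%, 51.6% and 51.6% for lists chosen by each library, and at 45 °C it was 42.2% and 24.9% on the first 2 of these bases. Without 1 library the shares were 51.7 to 51.8% and 37.0 to 40.1%. With the replicate number as a block the counts were 4 higher and 5 lower and the median -0.08, and no call changed. Whether the replicate numbers pair the libraries is not known. Same-numbered deviations correlated at 0.15, 0.02 and 0.01 and differently numbered ones at -0.11 to 0.12, which cannot decide it with 3 libraries per group. The share of higher among all calls was 72.6%, and 34.0%, 55.4% and 57.3% under the 3 scalings. Ranking by reads per protein length was not run, since no lengths of proteins were at hand. The members had at least 3000 reads in each library, and what set the precision of their fold changes was not tested. Outliers were not tested in groups of 3, and a spread between 3 libraries is itself poorly known.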
